A study of Mus musculus with 10 samples.

Results

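The genes described here are 10 components of the circadian clock, taken by name from a table of 14626 genes in mouse heart. They are the positive limb Clock, Arntl and Npas2, the negative limb Per2, Per3, Cry1, Cry2, Nr1d1 and Nr1d2, and the output gene Dbp. All 10 were present and all 10 passed the minimum signal of the test, which left 12855 genes. RNA was measured in hearts of 5 wild-type (WT) and 5 Lmna knockout (KO) mice, 1 library per mouse, all on a C57BL/6 background and at day 14 after birth. The knockout lacks Lmna on both alleles, the gene of lamin A and lamin C of the nuclear lamina, and it is not described as limited to the heart. The sources used here do not give the hour of collection, on which clock transcripts depend, nor litters, nor the exons that the allele removes. The libraries labelled NTG1 to NTG5 are called WT1 to WT5 here, and KO1 to KO5 keep their labels.

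The clock is a feedback loop of transcription that runs in nearly every cell, cardiomyocytes included. CLOCK or its paralogue NPAS2 pairs with ARNTL (BMAL1), and the pair binds E-boxes and switches on Per, Cry, Nr1d and Dbp genes. PER and CRY proteins then inhibit that pair, while NR1D1 and NR1D2 (REV-ERB) repress Arntl, so in an intact rhythm Arntl and Nr1d1 peak at opposite times. DBP binds D-boxes and carries the rhythm to output genes, Per3 among its textbook targets.

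Letters of these motifs stand just upstream of a few of the genes. The promoter table of RefSeq (GRCm38.p6) had entries for 9 of the 10 genes, with 12 start sites, and the 250 bases before each start were searched on both strands. The E-box was searched as CACGTG, the D-box as TTANGTAA and the nuclear receptor half-site as AGGTCA. Of all 32851 promoter windows of that length, 6.02% held the E-box, 2.06% the D-box and 14% the half-site. The half-site stood in 1 window of Clock and in that of Nr1d2. The stretches of Per3 and Cry1 are shown because they hold the D-box and E-box matches, and because these genes deviated in opposite directions in the 4th library of each genotype. That of Per3 lies on the minus strand at chr4:151044666-151044915 and holds 2 D-boxes, in capitals, which begin 205 and 158 bases before the start. That of Cry1 lies on the minus strand at chr10:85185055-85185304 and holds 1 E-box, in capitals, which begins 60 bases before the start. A match of letters is not a measured binding site.
Per3: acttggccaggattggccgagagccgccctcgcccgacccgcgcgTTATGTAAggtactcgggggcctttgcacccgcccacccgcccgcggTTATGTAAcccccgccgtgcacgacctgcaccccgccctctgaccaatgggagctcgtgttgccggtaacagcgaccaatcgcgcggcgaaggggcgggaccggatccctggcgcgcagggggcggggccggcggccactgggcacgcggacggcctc
Cry1: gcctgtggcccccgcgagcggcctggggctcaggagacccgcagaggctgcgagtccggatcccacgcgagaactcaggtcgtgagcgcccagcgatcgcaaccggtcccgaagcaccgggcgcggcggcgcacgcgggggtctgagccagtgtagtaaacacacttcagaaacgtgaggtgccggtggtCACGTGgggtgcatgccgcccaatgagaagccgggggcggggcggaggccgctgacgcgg

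Values are signal units, CPM (read counts scaled to the effective library size), from libraries of 15259545 to 22146030 reads. Lmna, the targeted gene, was between 102.3 and 110.1 in WT and between 22.1 and 48.9 in KO, with no overlap (two-sided, exact permutation p = 0.00794, the smallest that 5 against 5 allow). KO5 stood apart, correlating with WT at 0.905 on average where KO1 to KO4 reached 0.962 to 0.985, so the tests are given with and without it. KO5 also had the highest Lmna of the knockouts, 1.64 times the mean of KO1 to KO4. Its summed signal of 10 cardiomyocyte markers was 85220, that of KO2 was 90780, and the other 8 libraries had 129500 to 169300. In KO5 the 5 atrial markers summed to 6989, against 27.7 to 74.4 in WT and 115.7 to 250.1 in KO1 to KO4, and the 7 fibroblast markers to 1945, against 4082 to 5997 in the other libraries. In bulk tissue, fewer cells of a type and less RNA per cell cannot be told apart.

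None of the 10 clock genes passed the test between genotypes, with or without KO5 (limma, Benjamini-Hochberg adjusted p under 0.05). Over all tested genes 0.202% were called with all libraries, 0.117% higher and 0.0856% lower in KO. Without KO5 it was 4.98%, 2.27% higher and 2.71% lower. At an unadjusted p under 0.05 there were 3 clock genes in each fit, Npas2, Per2 and Nr1d1, all with more signal in KO. Across all genes the unadjusted share was 20.8% with all libraries (9.42% higher in KO) and 22.5% without KO5 (10.2% higher). DESeq2 called 1 clock gene, Npas2, with all libraries (6.15% of all genes), and edgeR's quasi-likelihood test called 0 (0.156% of all genes). Without KO5, DESeq2 called 2, Npas2 and Nr1d1 (10% of all genes), and edgeR 0 (4.85%). The median log2 difference of the 10 genes was 0.13 with all libraries and 0.04 without KO5, against -0.01 over all genes tested. The authors' deposited table, with all libraries, has Nr1d1 at an FDR of 0.0381 and Per2 at 0.0464, both toward KO, among 5.52% of its 14646 rows at an FDR under 0.05, and 3.93% in that direction.

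**Figure D1:**
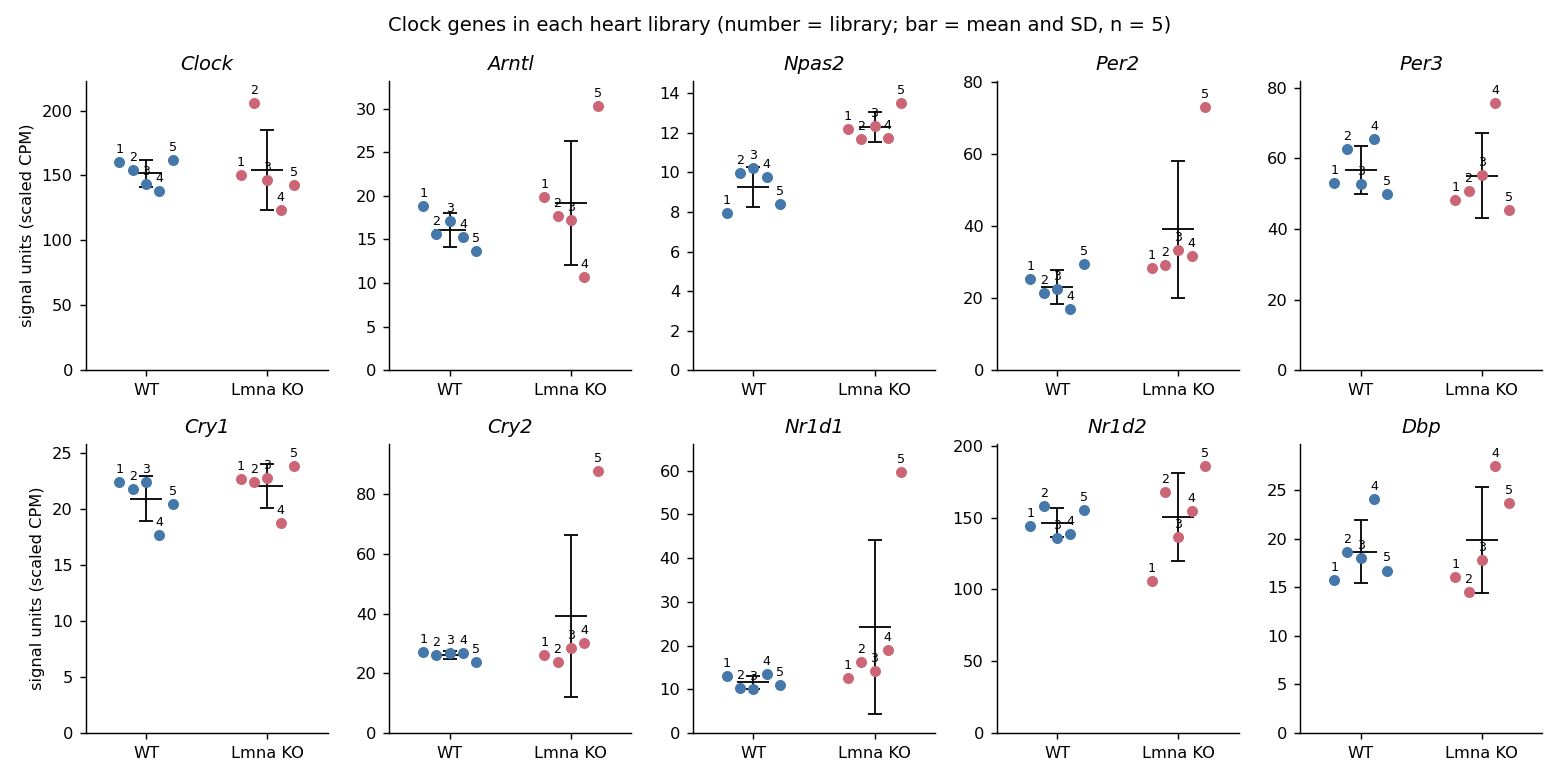
Signal units (scaled CPM, linear axes from 0) of the 10 clock genes in each of 5 WT (blue) and 5 Lmna KO (red) libraries, numbered by library, with mean and SD. Npas2 is the gene whose 2 groups do not overlap, and KO5 stands far above the other points for Per2, Cry2 and Nr1d1.

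Npas2, on chromosome 1 (39194272 to 39363240, mm10), encodes the partner of ARNTL that can stand in for CLOCK. Its signal was 7.93, 9.98, 10.2, 9.79 and 8.38 in WT1 to WT5 and 12.2, 11.7, 12.3, 11.7 and 13.5 in KO1 to KO5. Every KO library lay above every WT library, a pattern seen in 4.07% of all tested genes and in 1 of the 10 clock genes. With KO1 to KO4 alone it was again 1 of 10, against 4.89% of all genes. Every KO library lay below every WT library for 0 of the 10, against 6.18% of all genes with all 5 knockouts. The means were 9.26 ± 1.03 and 12.3 ± 0.737 (SD, n = 5 each), a ratio of 1.33. The log2 difference was 0.40 ± 0.10 (SE, limma adjusted p = 0.105), and without KO5 it was 0.36 (limma adjusted p = 0.0607). KO1 to KO4 alone had a mean of 11.99 ± 0.331 (SD, n = 4). Depth was lowest for this gene, at 118 to 273 reads per library, where counting alone gives an error of 9.21% at the lowest.

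Clock and Arntl, the other genes of the positive limb, had no shift of that kind. Clock (chromosome 5, 76209868 to 76304792) was 160.2, 154, 143, 138 and 162 in WT and 151, 206, 147, 124 and 143 in KO. The highest and the lowest value of Clock were both in knockouts, KO2 and KO4. Its log2 difference was 0.01 ± 0.13 (SE, limma adjusted p = 0.984), and 0.03 ± 0.13 without KO5 (SE, adjusted p = 0.924). Arntl (chromosome 7, 113207465 to 113314126), the obligate partner in the activator, was 18.8, 15.6, 17.1, 15.2 and 13.7 in WT and 19.8, 17.7, 17.2, 10.7 and 30.3 in KO. Here too the extremes were knockouts, KO4 lowest and KO5 highest, with KO2 and KO3 inside the WT range. The log2 difference of Arntl was 0.18 ± 0.22 (SE, limma adjusted p = 0.647), and it was -0.00 ± 0.16 without KO5 (SE, adjusted p = 0.995).

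The period genes differed from each other. Per2 (chromosome 1, 91415982 to 91459328), whose protein closes the loop with CRY, was 25.3, 21.4, 22.4, 16.9 and 29.5 in WT and 28.3, 29.1, 33.2, 31.8 and 72.9 in KO. All 5 knockouts lay above 4 of the 5 WT libraries, and KO1 and KO2 lay below WT5. The log2 difference was 0.67 ± 0.25 (SE, limma adjusted p = 0.173), and without KO5 it was 0.42 ± 0.14 (SE, adjusted p = 0.102). Mean signals were 23.1 ± 4.68 in WT (SD, n = 5) and 30.6 ± 2.31 in KO1 to KO4 (SD, n = 4). Per3 (chromosome 4, 151003655 to 151044665), a paralogue with a smaller part in the loop, was 52.9, 62.6, 52.8, 65.3 and 49.9 in WT and 48.2, 50.7, 55.1, 75.6 and 45.4 in KO. Its KO values lay on both sides of the WT range, with KO4 highest and KO5 lowest, and the log2 difference was -0.06 ± 0.14 (SE, limma adjusted p = 0.829), or 0.00 ± 0.13 without KO5.

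The cryptochromes, the main repressors of the activator pair, differed mainly in KO5. Cry2 (chromosome 2, 92403647 to 92434069) was 27.0, 26, 26.6, 26.7 and 23.6 in WT and 26.1, 23.8, 28.4, 30.1 and 87.6 in KO. KO1 and KO2 were inside the WT range, KO3 and KO4 just above it and KO5 at 3.37 times the WT mean. The log2 difference of Cry2 was 0.39 ± 0.29 (SE, limma adjusted p = 0.444) with all libraries and 0.06 ± 0.09 without KO5 (SE, adjusted p = 0.745). Cry1 (chromosome 10, 85131700 to 85185054) was 22.4, 21.7, 22.4, 17.6 and 20.4 in WT and 22.6, 22.4, 22.8, 18.7 and 23.8 in KO. The lowest library of each genotype was the 4th, and KO5 was 1.14 times the WT mean, so the cryptochromes did not share the KO5 value. For Cry1 the log2 difference was 0.08 ± 0.10 (SE, limma adjusted p = 0.677), and 0.05 ± 0.10 without KO5.

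Nr1d1 and Nr1d2, the nuclear receptors that repress Arntl, also parted. Nr1d1 (chromosome 11, 98767932 to 98775377) was 12.97, 10.3, 10.1, 13.4 and 11.01 in WT and 12.6, 16.2, 14.1, 19.1 and 59.7 in KO. KO2 to KO5 lay above every WT library, KO1 was inside the WT range and KO5 was 5.17 times the WT mean. The log2 difference was 0.79 ± 0.35 (SE, limma adjusted p = 0.229), and without KO5 it was 0.40 ± 0.13 (SE, adjusted p = 0.106). Nr1d1 shares 263 bases, 9.67% of its exons, with Thra on the other strand, and the use of strand in counting is not given. Thra was 69.6 to 92.5 in WT, 55.0 to 102.7 in KO1 to KO4 and 88.2 in KO5. The part of the shared bases in the Nr1d1 values was not tested. Nr1d2 (chromosome 14, 18204056 to 18239106) was 144, 158, 136, 139 and 155 in WT and 106, 168, 136, 154 and 186 in KO. KO1 lay below and KO2 and KO5 above the WT range, with a log2 difference of 0.01 ± 0.14 (SE, limma adjusted p = 0.962), and -0.07 ± 0.12 without KO5.

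Dbp (chromosome 7, 45705247 to 45710203), a transcription factor gene driven directly by the activator pair, was 15.7, 18.7, 18.03, 24.1 and 16.7 in WT and 16.0, 14.5, 17.8, 27.4 and 23.7 in KO. The 4th library was the highest of its genotype in both groups, and KO2 lay below every WT library. The log2 difference of Dbp was 0.06 ± 0.18 (SE, limma adjusted p = 0.856), and -0.01 ± 0.18 without KO5. Dbp shares 539 bases, 29.3% of its exons, with Sphk2 on the other strand. Sphk2 was 17.97 to 22.1 in WT, 15.0 to 19.8 in KO1 to KO4 and 36.1 in KO5, so the 2 genes cannot be told apart there unless reads were counted by strand.

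**Figure D2:**
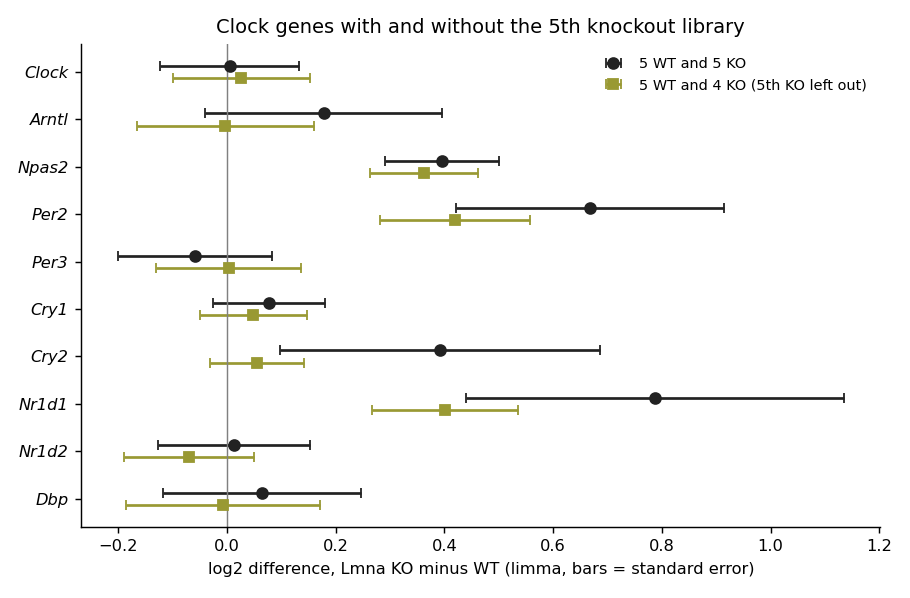
Log2 difference, Lmna KO minus WT, of each clock gene (limma, bars are standard errors) with all 10 libraries (circles) and with KO5 left out (squares). Npas2 stays near 0.40, while Cry2 moves from 0.39 to 0.06 and Nr1d1 from 0.79 to 0.40.

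Set per kilobase of exon, the WT signal was highest for Nr1d2 (31.4 ± 2.14 signal units per kb, SD, n = 5) and Clock (15.3 ± 1.05). Dbp (10.2 ± 1.78) and Per3 (9.45 ± 1.14) followed and did not differ beyond their spread. Then came Cry1 (6.91 ± 0.659), Cry2 (5.99 ± 0.317) and Arntl (5.21 ± 0.628), each gap being near the sum of the neighbours' SDs or smaller. Nr1d1 (4.24 ± 0.568) and Per2 (3.96 ± 0.802) did not differ beyond their spread, and Npas2 was lowest (2.19 ± 0.244). Lengths are unions of exons in GENCODE M21 (GRCm38), and which isoforms the heart uses was not measured. Not divided by length, the log2 ratio of Npas2 to Clock averaged -3.97 ± 0.24 in the 5 WT libraries and -3.58 ± 0.30 in the 5 knockouts (SD), or -3.63 ± 0.32 in KO1 to KO4.

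Among the WT hearts the clock genes varied unequally. The SD of log2 signal over the 5 WT libraries was 0.29 for Per2, 0.23 for Dbp, 0.18 for Nr1d1, 0.17 for Per3 and Arntl, 0.16 for Npas2 and 0.14 for Cry1. It was 0.10 for Clock and Nr1d2 and 0.08 for Cry2. The median was 0.16 over the 10 genes and 0.12 over all genes tested.

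WT4 and KO4 deviated from the WT mean with the same signs for several of the genes. In KO4 Dbp was 0.56, Per3 0.42 and Nr1d1 0.71 above the WT mean on the log2 scale, while Arntl was 0.56, Clock 0.29 and Cry1 0.15 below it. In WT4 the same 6 genes had log2 differences of 0.38, 0.21, 0.22, -0.07, -0.13 and -0.23, each with the same sign as in KO4. For Arntl the WT4 value was inside the WT spread and WT5 was lower. Per2 and Nr1d2 had opposite signs, at -0.42 and -0.07 in WT4 and 0.48 and 0.08 in KO4, and Npas2 and Cry2 were above the WT mean in both. WT4 was the highest or the lowest WT library for 6 of the 10 clock genes (Clock, Per2, Per3, Cry1, Nr1d1 and Dbp). That was against 50.3% of all genes tested and so near the background. KO4 was the highest or lowest of WT and KO1 to KO4 for 6 of 10, a different set (Clock, Arntl, Per3, Cry2, Nr1d1 and Dbp), against 28.5% of all genes. Over all genes tested, deviations of WT4 and KO4 from their group means correlated at 0.12. The share of all genes with the same sign in WT4 and KO4 was not computed. This description was made after the values were seen and carries no test. Low Arntl with high Nr1d1 and Dbp, all outside the WT range, was seen in KO4.

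**Figure D3:**
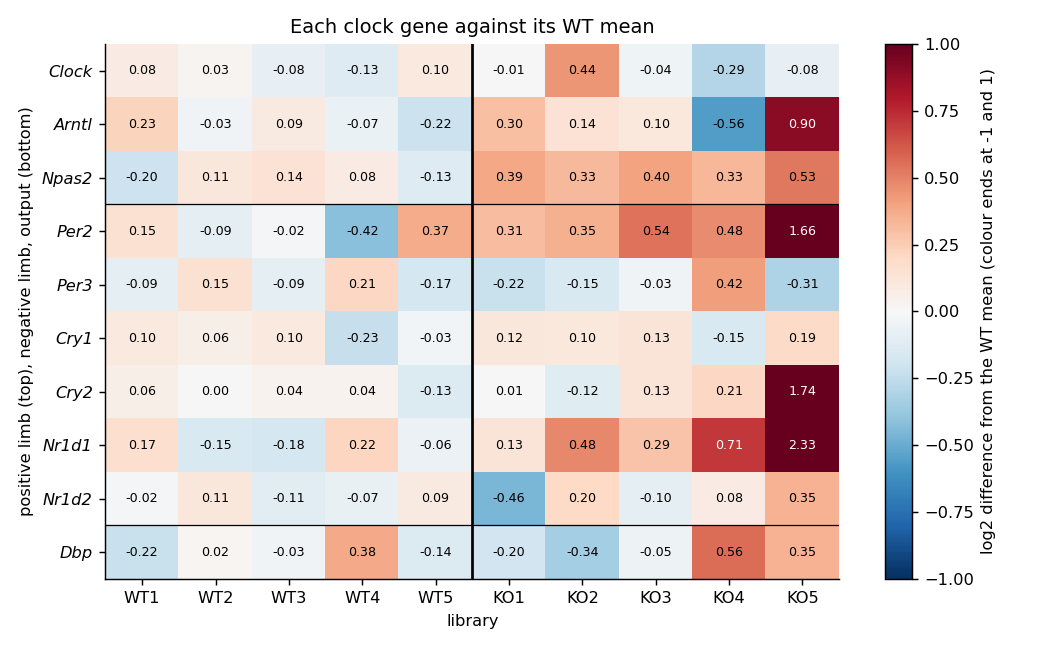
Log2 difference of each clock gene from its WT mean in each of 10 libraries, on log2(signal + 0.5), with the vertical line between genotypes and horizontal lines between positive limb, negative limb and Dbp. The row of Npas2 is positive in all 5 knockouts (0.33 to 0.53), and WT4 and KO4 share the signs of Clock, Arntl, Per3, Cry1, Nr1d1 and Dbp.

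KO5 deviated differently, with high means of both limbs. Its signal was over 2 times the WT mean for 3 of the 10 clock genes (Nr1d1, Cry2 and Per2), against 9.32% of all genes tested, and under 0.5 times it for 0, against 14.5%. It was the highest of all 10 libraries for 7 of the 10, against 32.5% of all genes. Arntl and Nr1d1 were high together, at log2 differences of 0.90 and 2.33. Dbp was at 0.35, Clock at -0.08 and Per3 was low at -0.31. KO5 also had low summed signals of cardiomyocyte and fibroblast markers and a high sum of atrial markers. Of the 7 fibroblast markers, 1 was higher in every KO library than in every WT library. Endothelial, smooth muscle and pericyte, macrophage and erythroid marker sums in KO5 were below the WT range too. Lymphocyte, epicardial, skeletal muscle, and lung and thymus epithelium marker sums in KO5 were above the WT range. The cardiomyocyte markers summed to 85220 in KO5 and to 90780 in KO2. Per2, Cry2 and Nr1d1 were 29.1, 23.8 and 16.2 in KO2, against 72.9, 87.6 and 59.7 in KO5. The part of the cell types behind these markers in the KO5 values was not tested.

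Averaged over its genes, the positive limb was 0.23, 0.31, 0.15, -0.17 and 0.45 above the WT mean (log2) in KO1 to KO5, and between -0.08 and 0.05 in WT. KO4 lay below the WT range and the other knockouts above it. In KO3 that mean came mostly from Npas2 (0.40), with Clock at -0.04 and Arntl at 0.10, and in KO5 Clock was at -0.08. The negative limb was -0.02, 0.14, 0.16, 0.29 and 0.99 in KO1 to KO5, and between -0.04 and 0.06 in WT. Again 4 of 5 knockouts lay above the WT range, with KO1 inside it. Over all genes tested the median absolute log2 difference from the WT mean was 0.15, 0.32, 0.15, 0.18 and 0.51 in KO1 to KO5. In the WT libraries it was 0.07 to 0.09, and no share over all genes was computed for such limb means. The log2 ratio of Nr1d1 to Arntl, which sets a repressor against its target, was -0.73 to -0.18 in WT. It was -0.63, -0.13, -0.28, 0.80 and 0.97 in KO1 to KO5, so KO4 and KO5 had the highest ratios, KO4 with low Arntl and KO5 with high Arntl. Its mean over 5 libraries was -0.46 ± 0.22 for WT and 0.15 ± 0.70 for KO (SD), and -0.06 ± 0.61 in KO1 to KO4 (n = 4).

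**Figure D4:**
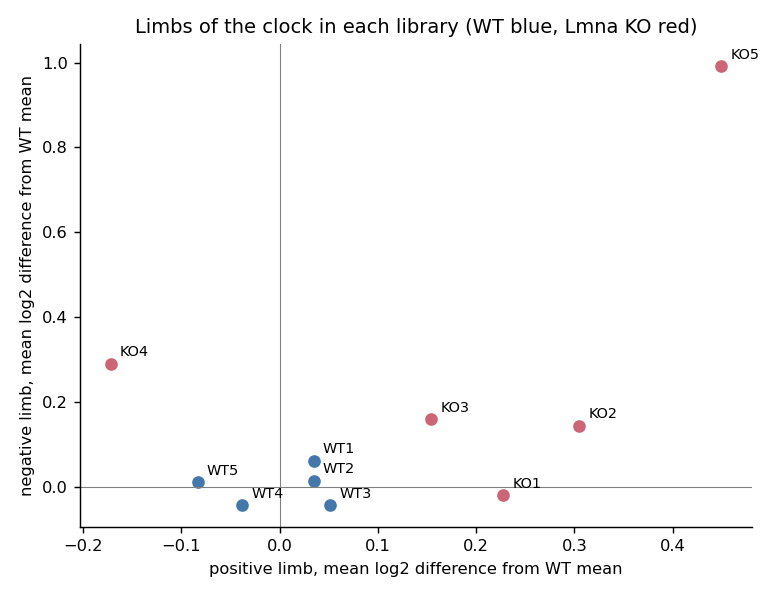
Mean log2 difference from the WT mean of the positive limb (horizontal, 3 genes) against that of the negative limb (vertical, 6 genes) in 5 WT (blue) and 5 Lmna KO (red) libraries. WT libraries lie near the origin, KO1 to KO3 to the right, KO4 to the upper left (-0.17 and 0.29) and KO5 at the upper right (0.45 and 0.99).

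Of 29 further clock genes 27 were tested. With all libraries limma called 0 (5 higher and 1 lower at an unadjusted p under 0.05, against 20.8% of all genes). The edgeR test called 0 (0.156% of all genes). DESeq2, which called 6.15% of all genes, called Per1 higher and Timeless, named after its values were seen, lower. Without KO5 limma called 1, Per1, higher, against 2.27% of all genes. In the same libraries edgeR called 2 higher (4.85% of all genes), and DESeq2 3 higher and 1 lower (10%), with Per1 among the higher in each. With the label-number range described further on as a second factor, and KO5 left out, Per1 passed (limma adjusted p = 0.0290, against 1.91% of all genes). Their median log2 difference was 0.14 with all libraries and 0.09 without KO5, against -0.01 over all genes tested in both. Per1, the period gene that glucocorticoids induce directly, was 43.9, 39.1, 42.2, 29.5 and 45.2 in WT and 70.0, 65.7, 79.2, 73.7 and 266 in KO. Every KO library lay above every WT library, as in 4.07% of all genes, and without KO5 Per1 rose by 0.86 on the log2 scale (limma adjusted p = 0.00728, against 0.110 with all libraries). Its DESeq2 adjusted p with all libraries was 0.00407, and the authors' deposited table gives it an FDR of 0.00101. Rora, an activator that competes with NR1D proteins at the Arntl promoter, was 221 in KO5 against a WT mean of 84.0 ± 8.44 (SD, n = 5), and it did not pass with all libraries (limma adjusted p = 0.268) or without KO5 (adjusted p = 0.337). Tef, a paralogue of Dbp, was 264 in KO5 and 109 to 169 in KO1 to KO4, against a WT mean of 136 ± 10.5 (SD, n = 5), while Hlf, the third of that family, was 21.5 in KO5 against 25.4 to 31.8 in WT. Ciart, an E-box repressor, was 4.83 in KO5 and at most 1.65 elsewhere. Bhlhe40, Bhlhe41 and Nfil3, repressors of E-boxes and D-boxes, had log2 differences of 0.36, 0.09 and 0.14, which did not pass (limma adjusted p = 0.317, 0.728 and 0.599).

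Of 24 genes listed as clock outputs of the heart or kin to them, limma called 0 with all libraries (7 higher and 1 lower at an unadjusted p under 0.05, against 20.8% of all genes). With all libraries edgeR called 0 (0.156% of all genes) and DESeq2 3, Cdkn1a, Lonrf3 and Tspan4, all higher (6.15% of all genes called in either direction). Without KO5 4 rose and 1 fell (limma), against 2.27% and 2.71% of all genes. The 4 were Cdkn1a, Tspan4, Lonrf3 and Hmgb1, and the 1 was Gys1, the muscle glycogen synthase. Cdkn1a, Klf9 and Pdk4 are also on the list of glucocorticoid-responsive genes described further on, and are counted there again. Tspan4 was 18.1 ± 1.75 in WT (SD, n = 5) and 24.8 ± 2.67 in KO1 to KO4 (SD, n = 4, limma adjusted p = 0.0328). Lonrf3 was 5.51 ± 0.751 and 8.47 ± 1.31 in the same groups (adjusted p = 0.0360), and Gys1 was 99.4 ± 8.93 and 76.8 ± 4.05 (adjusted p = 0.0287). With the label-number range described further on as a second factor, and KO5 left out, Tspan4 and Gys1 passed (limma adjusted p = 0.0398 and 0.0448) and Lonrf3, Hmgb1 and Cdkn1a did not (0.0781, 0.135 and 0.0721). The list had a median log2 difference of 0.17 with all libraries and 0.04 without KO5.

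Per1 and Per2 are also targets of the glucocorticoid receptor, and the 15 other genes of a list of glucocorticoid-responsive genes that holds Per1 were set beside them. Their median log2 difference was 0.89 with all libraries and 0.65 without KO5, with 0 called by limma in the first fit (12 at an unadjusted p under 0.05, against 20.8% of all genes) and 4 in the second (Sgk1, Cebpd, Cdkn1a and Hif3a, all higher, against 2.27% of all genes). DESeq2 called 6 with all libraries, all higher (6.15% of all genes called in either direction), and edgeR 0 (0.156%). With the label-number range as a second factor and KO5 left out, limma called 0 of the 15. At an unadjusted p under 0.05 there were 6 of them in that fit, against 2396 of all 12855 genes tested. Per1 itself passed in that fit (limma adjusted p = 0.0290), which called 1.91% of all genes. Fkbp5, a co-chaperone of that receptor, was 21.0, 15.3, 13.2, 6.58 and 22.9 in WT and 20.5, 34.3, 43.2, 28.0 and 308 in KO. Its lowest library was WT4 and its highest KO5, as for Per1, Per2 and Zbtb16. KO5 was the highest library for 32.5% of all genes tested, and WT4 the highest or lowest of WT for 50.3%. Zbtb16 was 78.0 to 167.0 in KO1 to KO4 against 48.7 to 162.4 in WT, where WT1 was highest. Among the WT libraries Per1 and Per2 had the same order, with WT4 lowest and WT5 highest, and Fkbp5 and Tsc22d3 had these same ends. Median log2 differences of the 15 genes from the WT mean were 0.15, 0.10, -0.08, -0.46 and 0.27 in WT1 to WT5 and 0.21, 0.94, 0.95, 0.49 and 1.78 in KO1 to KO5. KO1 was inside the WT range and the other knockouts above it. The part of glucocorticoid exposure in the Per values was not tested.

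**Figure D5:**
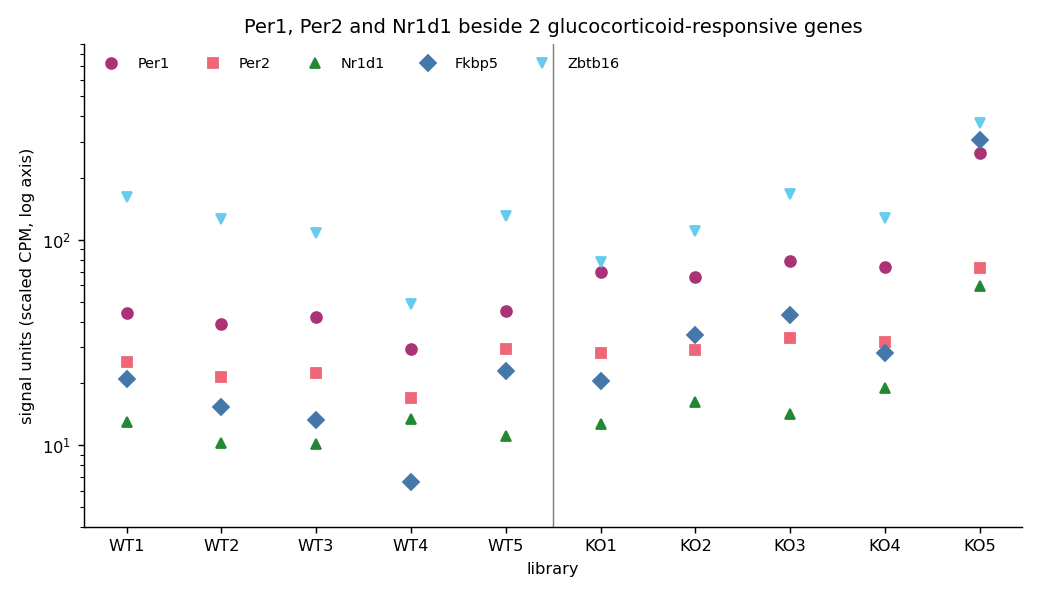
Signal units (log axis) of Per1, Per2 and Nr1d1 and of the glucocorticoid-responsive genes Fkbp5 and Zbtb16 in each library, WT left of the line and Lmna KO right of it. WT4 is lowest for Per1 (29.5), Per2 (16.9), Fkbp5 (6.58) and Zbtb16 (48.7), and KO5 is highest for all 5 genes.

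The labels give each library a 3-digit number that they do not explain, 784, 785, 786, 801 and 733 for WT1 to WT5 and 716, 717, 719, 791 and 718 for KO1 to KO5. Apart from WT5 and KO4, the low numbers are knockouts and the high numbers WT. Within the low range Npas2 was 8.38 in WT5 and 12.4 on average in 4 knockouts, and within the high range it was 9.48 on average in 4 WT libraries and 11.7 in KO4. Per2 was 29.5 against 40.9 and 21.5 against 31.8 in the same way, and Nr1d1 was 11.01 against 25.6 and 11.7 against 19.1. Without KO5 the low-range knockout means were 12.1 ± 0.345 for Npas2, 30.2 ± 2.67 for Per2 and 14.3 ± 1.79 for Nr1d1 (SD, n = 3), so for Per2 the low range then held almost no difference from WT5. With the range as a second factor the log2 differences were 0.42, 0.46 and 0.78, limma giving adjusted p-values of 0.452, 0.630 and 0.598. Without KO5 they were 0.40, 0.31 and 0.53, at adjusted p-values of 0.119, 0.336 and 0.0984. In that fit 0.00778% of all genes and 0 of the 10 clock genes were called, and without KO5 1.91% and 0. For Arntl the directions differed, 13.7 against 21.3 in the low and 16.7 against 10.7 in the high range. For Dbp they were 16.7 against 17.99 and 19.1 against 27.4, and without KO5 the low-range knockout mean was 16.1 ± 1.67 (SD, n = 3), below WT5.

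Genes with profiles most like those of Arntl, Nr1d1 and Dbp were then sought. Likeness was the root mean square difference of centred log2 signal over the 10 libraries, searched over 10093 named genes whose mean signal was 5 or more. Nearest to Nr1d1, whose own profile had a root mean square of 0.70, were Sema5a (0.17), Igf1r (0.17), Cul4b (0.18) and Mamld1 (0.18), all high in KO5. Nearest to Dbp (0.28) were Prickle1 (0.11), Zfp217 (0.11), Nrde2 (0.14) and Gprc5c (0.14). Arntl (0.36) was followed most closely by Rpl22l1 (0.16), Rai14 (0.16), Pdia4 (0.17) and Tubb6 (0.18), and its mirror image by Tbc1d4 (0.15), Nfatc2 (0.17), Zfp128 (0.17) and Ifngr2 (0.17). No clock gene was among these. Without KO5 0 of the 4 genes nearest to Arntl, 0 of the 4 nearest to Nr1d1, 2 of the 4 nearest to Dbp (Prickle1 and Zfp217) and 1 of the 4 nearest to the mirror image of Arntl (Zfp128) were again among the nearest 4.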

How the data were processed

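Heart RNA of 5 WT and 5 Lmna KO mice was used. The submitters' processing notes name TopHat2, Cufflinks, edgeR and mm10, without versions or roles. Counter, strand and filters are not stated in these sources. The deposited table holds, by its sheet name, a signal value (CPM of the effective library size) for 14647 rows and each library. The authors' deposited table of their comparison gives a signal level, log2 ratio, p-value and FDR for 14646 rows. Whole reads came back for 100% of values within 0.01 read. A total of 21 rows with date-like names, 0.134% to 0.204% of reads, were left out. Depth limits low genes most.

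limma 3.58.1 was fitted to log2(signal + 0.5) with genotype as the factor and an intensity trend, over 12855 genes averaging 1 signal unit or more, with two-sided Benjamini-Hochberg adjustment. Folds on this scale understate changes of low genes. Whole read counts recovered from the deposited values went to edgeR 4.0.16 (quasi-likelihood, TMM) and DESeq2 1.42.0. The limma and edgeR fits were tested on simulated data. Every simulated gene had the same dispersion and no simulated library stood apart as KO5 does, so that test does not cover such a library. Genes named are the 10 members, fixed clock and glucocorticoid genes, list members called with or without KO5 and the nearest profiles. Sphk2 and Thra were added for their overlap, and Klf9 and Pdk4 as genes that the lists share. Some genes that this rule took are not reported here. Members and lists were chosen with earlier results of these data known. No library repeated another (chi-square per degree of freedom at least 5.09 within a genotype). P-values of the fits set the genotype difference against the spread between these libraries within a genotype.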

Additional observations from a re-analysis of the deposited data

Results flagged for a closer look

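In a group of 5, a library was flagged when its gap to the nearest other library took an unusually large share of the group's range. Of 22 groups examined (10 clock genes and Lmna in each genotype) 4 were flagged, and all 4 were knockout groups. The cut, a share of 0.71, would flag about 1 group in 20 by chance if values were normally distributed. Shares were taken on signal units, not on the log scale, and that distribution was not checked. The groups also share the same libraries, so their flags are not independent. KO5 made 3 of the 4, and it was the highest library for 32.5% of all genes tested. The share flagged over all genes was not computed. KO5 was the high library for Per2 (share 0.888), Cry2 (0.903) and Nr1d1 (0.863). KO4 was the low library for Cry1 (0.723), at 18.7 against 22.4 to 23.8 in the other knockouts, while WT4 at 17.6 was the lowest WT library.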

How the results depend on the processing

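The count of clock genes past the threshold was 0 in the main limma test and stayed 0 without each library in turn (lowest 0, highest 0). It was 1 without KO2 and KO5 together (Npas2, limma adjusted p = 0.0405), 2 with library weights (Npas2 and Per2), 1 with DESeq2 and 2 with DESeq2 without KO5. The count over all genes, 26, was 6 to 640 without single libraries, 14 with a minimum mean signal of 5, 1370 without KO2 and KO5, 2280 with library weights and 786 with DESeq2. It was 1 with the label-number range as a second factor. Settings added after the data were seen, all without KO5, gave 623 with edgeR, 1286 with DESeq2 and 246 with the label-number range. Without WT1, WT2, WT3, WT4 and WT5 the count over all genes was 6, 7, 6, 9 and 9, and without KO2, KO3 and KO5 14, 11 and 640. The cause of these differences was not tested. The targeted gene kept its direction without each library (-1.83 to -1.55), and its limma adjusted p was 0.0761 with the label-number range as a second factor (log2 difference -1.76). The Nr1d1 to Arntl difference (KO minus WT, log2) was 0.61, and 0.40 to 0.80 without single libraries.

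Over 25 alternatives Npas2, Per2, Cry2 and Nr1d1 had a positive log2 difference in 25. Clock, Arntl, Per3, Cry1, Nr1d2 and Dbp had either sign. With the replicate number as a block the count was 0 clock genes and 35 genes in all. Same-numbered libraries correlated by -0.134 to 0.182 in their deviations, so the numbers were not taken to pair them.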
